A study of Mus musculus with 6 samples.

Results

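The 38 genes described here are the interferon-stimulated genes and interferon regulatory factors among the 750 genes counted in CD4 T cells from mouse liver. They were chosen by name, with earlier results of these data known. Of the 38, 28 carry a symbol of the Ifi, Ifit, Ifitm, Isg, Mx, Oas, Gbp, Irf, Ifnar or Ifngr families. The other 10 come from a list of 13 further names, of which Usp18, Xaf1 and Eif2ak2 were not analysed here. RNA was counted with the nCounter assay, in which barcoded probes bind RNA and the barcodes are counted without amplification. There were 3 samples labelled Chow and described as control, and 3 labelled FFC and described as MASH, which the series calls biological replicates. In this field MASH usually stands for metabolic dysfunction-associated steatohepatitis; the labels spell out neither it nor FFC. The sources used here do not give the strain, sex or age of the mice, any genotype, how long they were fed, or how the CD4 T cells were isolated.

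Values are the deposited log2 values unless stated otherwise. They are log2 of whole counts times 1 scale factor per sample, and the counts summed to between 623212 and 900322 per sample. The lowest sum was that of FFC 3. Its median count per gene, 319, was also the lowest, against 360 to 417.5 in the other samples. The median of all tested genes was 0.43 (log2) higher in FFC than in Chow. Many differences are therefore also given after every sample was centred on its own median, which takes 0.39 off each difference. A gene was tested if its mean was at least 20 on the linear scale, which held for 748 genes and for all 38 interferon genes. T cell markers were high in every sample: 5 of 8 listed were measured (Cd3d, Cd3e, Cd3g, Cd4 and Cd28), none at 0, with at least 853 counts each. As these are bulk samples, fewer cells of a type and less RNA per cell cannot be told apart.

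Interferons are cytokines that put cells into an antiviral and inflammatory state. Type I interferons act through the receptor chains Ifnar1 and Ifnar2 on a complex with Stat2 and Irf9 that binds interferon-stimulated response elements, and interferon gamma acts through Ifngr1 and its partner chain on genes with gamma-activated sites. The induced genes include sensors of foreign nucleic acid, proteins that block viral replication, guanylate-binding proteins, the immunoproteasome and brakes on the response. T cells respond to interferons and are themselves a main source of interferon gamma.

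FFC was first compared with Chow over all 3 samples of each group. Among the interferon genes Ifitm1 was higher in FFC, and Ifi44l and Gbp2 were lower. These are 1 of 38 in the upward direction, where 17.4% of all tested genes passed, and 2 of 38 in the downward direction, where 0.936% passed (limma, adjusted p under 0.05 over 748 genes). A further 3 members, Ifi44, Gbp2b and Ifi27, had an unadjusted p under 0.05, making 6 of 38, against 37% of all tested genes. The median difference over the 38 was 0.22, against 0.43 over all tested genes, and 28 members lay above 0 and 10 below. After centring, Ifitm1 passed as higher (14.4% of all tested genes) and Gbp2, Ifi44l, Irf1, Psmb8 and Socs1 as lower (4.81% of all tested genes), with a median of -0.17 over the 38.

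Ifitm1 encodes a membrane protein that hinders the entry of viruses. Its values were 7.73, 7.58 and 8.11 in Chow 1 to 3 and 9.59, 9.49 and 9.10 in FFC 1 to 3, so that every FFC sample lay above every Chow sample. The difference was 1.59 ± 0.24 (log2, SE; 1.20 after centring), or 3.00-fold, with an adjusted p of 0.016 in limma. Its family member Ifitm3, which lies close by on chromosome 7, was also higher in each FFC sample than in any Chow sample, by 0.43 ± 0.24 (adjusted p = 0.23 in limma), and by 0.039 after centring. Ifi27, a small membrane protein gene, was the remaining member with all FFC samples above all Chow samples, at a difference of 0.64 (adjusted p = 0.060 in limma; 0.26 after centring). Such a separation held for 3 members, against 34.4% of all tested genes.

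Ifi44l and Ifi44 are neighbours on chromosome 3 and encode related proteins that interferon induces. Ifi44l stood at 8.33, 8.91 and 8.75 in Chow and at 7.503, 7.478 and 7.001 in FFC. All FFC samples were below all Chow samples, and the fall was 2.53-fold (log2 -1.34 ± 0.25, SE; -1.72 after centring; adjusted p = 0.025 in limma). Ifi44 stood at 9.88, 10.59 and 10.40 in Chow and at 9.49, 9.84 and 7.38 in FFC. Here too the groups were apart, but FFC 3 was far below the other two, and the difference of -1.38 ± 0.58 did not pass (adjusted p = 0.12 in limma; -1.77 after centring). Gbp2 encodes a guanylate-binding protein, an interferon gamma-induced GTPase that acts against intracellular microbes. Its values were among the highest of the members, 13.60, 13.25 and 14.29 in Chow and 12.71, 12.84 and 11.95 in FFC. Each FFC sample was below each Chow sample, with a 2.31-fold fall (log2 -1.21 ± 0.34; -1.60 after centring; adjusted p = 0.045 in limma). Groups were apart in this downward direction for 4 members (Gbp2, Ifi44, Ifi44l and Socs1), against 4.28% of all tested genes.

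Leaving out 1 sample changed the calls across the whole table. Without Chow 1, Chow 2, FFC 1 or FFC 2, only 7, 2, 1 and 1 of the 748 tested genes passed as higher in limma and 0 as lower (187, 183, 208 and 188 at an unadjusted p under 0.05). No interferon gene passed in these 4 fits, with 4, 3, 4 and 4 of the 38 at an unadjusted p under 0.05. The differences stayed close to their size with all samples, over the 6 fits between 1.47 and 1.74 for Ifitm1, between -1.50 and -1.17 for Ifi44l and between -1.44 and -0.92 for Gbp2. Ifitm1 and Ifi44l passed without Chow 3 and without FFC 3, while Gbp2 failed in all 6 such fits (adjusted p from 0.059 to 0.12) and under quantile normalization (adjusted p = 0.055). The plot of differences with their intervals shows the 3 calls beside the other members.

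**Figure D1:**
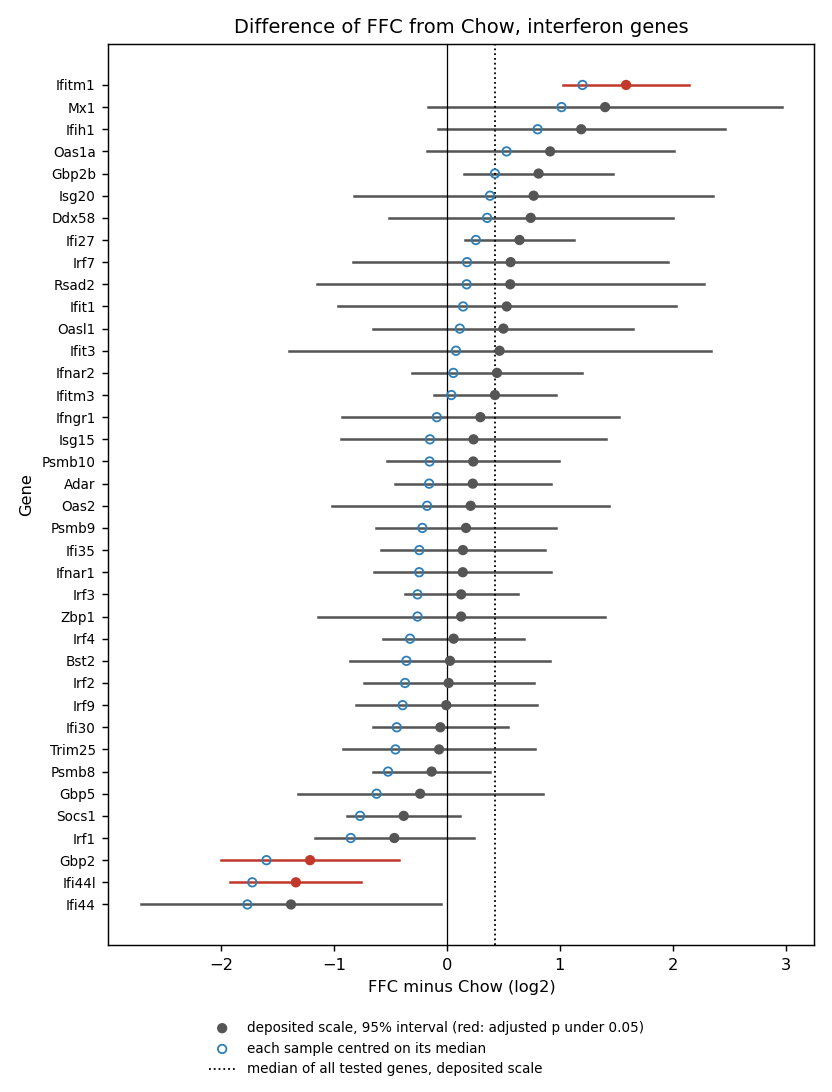
Difference of FFC from Chow for the 38 interferon genes, on the log2 scale. Filled points are differences on the deposited scale with their 95% intervals from limma, red where the adjusted p is under 0.05, open circles are the differences after each sample was centred on its median, and the dotted line is the median of all tested genes, 0.43. Ifitm1 lies to the right at 1.59, Gbp2 and Ifi44l to the left, and the intervals of Ifit3, Rsad2, Mx1 and Isg20 are wide.

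In the genes with wide intervals, FFC 3 stood apart from FFC 1 and FFC 2. What follows on this sample is a description, because 1 sample is set against 2 of the same group and no test can be made of it; FFC 3 was also singled out with earlier results of these data known. A gene was counted as lower in FFC 3 if FFC 3 lay below both others and at least 2-fold below their mean. That held for 20 of the 38 interferon genes, and for 11.8% of all tested genes (88 of 748). In the opposite direction it held for 0 of the 38 and 1.07% of all tested genes. The median of FFC 3 minus the mean of FFC 1 and 2 was -1.03 over the 38 genes and -0.34 over all tested genes, and the median of FFC 2 minus FFC 1 over the 38 was 0.26. After centring, 16 of 38 were at least 2-fold lower, against 5.75% of all tested genes, with a median of -0.64 against 0.05. Quantile normalization gave 16 of 38 against 6.55%, and cyclic loess 18 of 38 against 7.49%. None of these 3 scalings put any of the 38 at least 2-fold higher in FFC 3, against 2.81%, 3.07% and 1.60% of all tested genes in the same order.

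FFC 3 was below not only the other FFC samples but also the Chow samples. It lay below all 3 Chow samples for 28 of the 38 genes, which was so for 19.4% of all tested genes. FFC 1 and 2 lay above all 3 Chow samples for 21 of the 38, near the 52.9% of all tested genes. For 15 of the 38, FFC 1 and 2 lay above all Chow samples and FFC 3 below all of them, against 4.55% of all tested genes. The 15 were Bst2, Ddx58, Ifi35, Ifit1, Ifit3, Irf7, Isg15, Isg20, Mx1, Oas1a, Oas2, Oasl1, Psmb9, Rsad2 and Zbp1. Interferon genes made up 9.02% and 10.1% of all counts in FFC 1 and 2, 5.71% in FFC 3, and 8.72%, 8.91% and 10.7% in Chow 1 to 3.

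**Figure D2:**
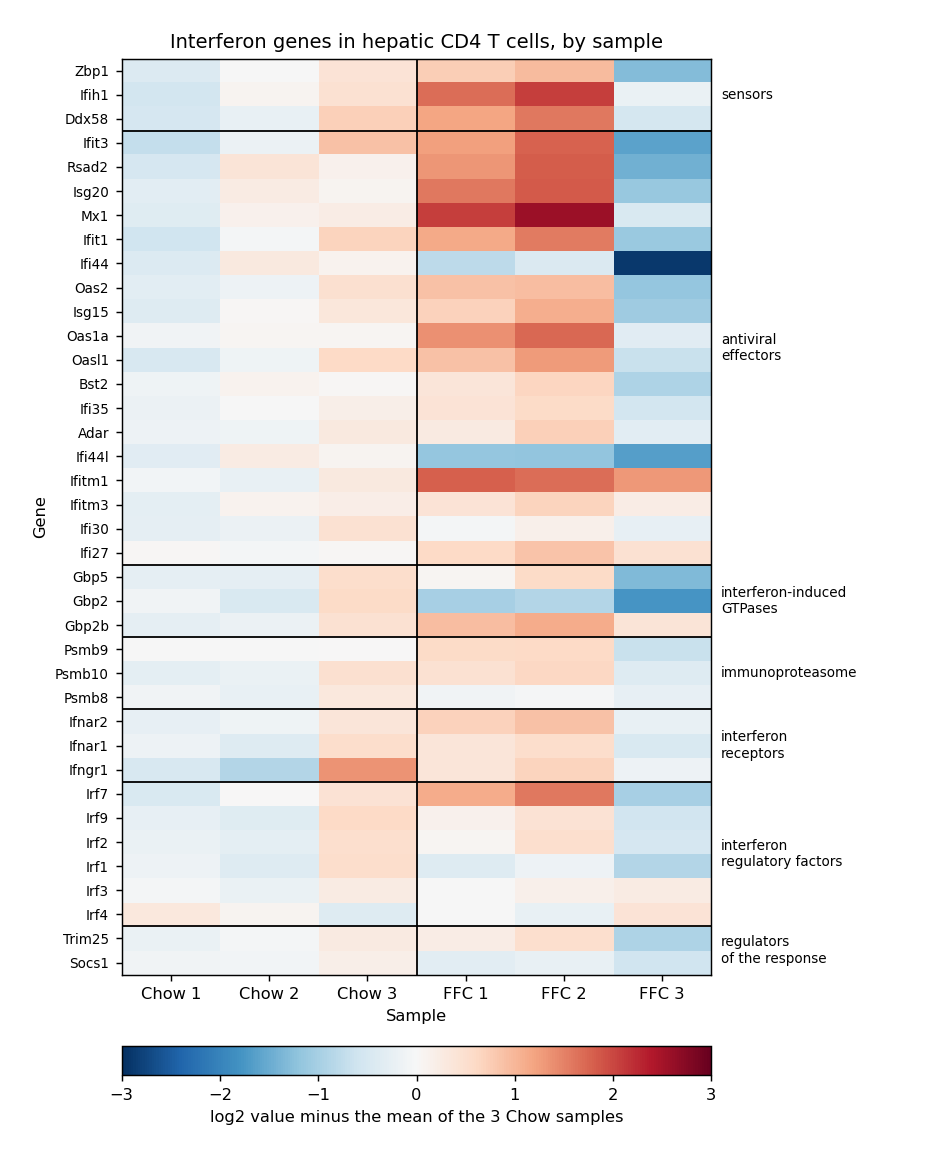
The 38 interferon genes (rows, grouped into classes set by symbol) in the 6 samples (columns), as the log2 value minus the mean of the 3 Chow samples. Red is above that mean and blue below it. In the antiviral effector and sensor rows FFC 1 and FFC 2 are mostly red and FFC 3 mostly blue, while Ifitm1 is red in all 3 FFC samples and Ifi44l and Gbp2 are blue in all 3.

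The antiviral effectors, a class set by symbol, were the 18 members placed in no other class, Ifi30 and Adar included. These 18 made up 12 of the 20 genes at least 2-fold lower in FFC 3. Their mean log2 value was 9.17, 9.50 and 9.76 in Chow 1 to 3, 10.2 and 10.5 in FFC 1 and 2, and 8.72 in FFC 3. FFC 3 was the lowest FFC sample for all 18, as it was for 68.2% of all tested genes. Ifit3, whose protein takes part in holding back viral RNA, stood at 9.92, 10.43 and 11.51 in Chow and at 11.85, 12.40 and 9.01 in FFC. FFC 1 and 2 were the highest samples and FFC 3 the lowest, 8.67-fold below their mean. Its neighbour in the same gene cluster on chromosome 19, Ifit1, which binds viral RNA, had 8.88, 9.42 and 10.14 in Chow and 10.61, 11.05 and 8.37 in FFC, 5.50-fold lower in FFC 3.

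Rsad2 encodes viperin, an enzyme that makes a chain-terminating nucleotide. It stood at 9.35, 10.24 and 9.97 in Chow and 11.17, 11.66 and 8.399 in FFC, 8.10-fold lower in FFC 3 than in the other FFC samples. Isg20, a nuclease that degrades viral RNA, had 8.90, 9.46 and 9.30 in Chow and 10.82, 11.06 and 8.09 in FFC, a 7.19-fold gap. Mx1, a dynamin-like GTPase that blocks influenza and related viruses, had 7.22, 7.73 and 7.83 in Chow and 9.66, 10.17 and 7.14 in FFC. Its gap was 6.83-fold, and in counts the gene went from 689 and 911 in FFC 1 and 2 to 127 in FFC 3. In each of these 3 genes FFC 3 was below every Chow sample. Over all 3 FFC samples none of the 5 genes differed from Chow beyond the spread: the differences were 0.47 for Ifit3, 0.53 for Ifit1, 0.56 for Rsad2, 0.77 for Isg20 and 1.4 for Mx1, with adjusted p from 0.18 to 0.72 in limma. After centring they were 0.080, 0.14, 0.18, 0.38 and 1.01 in the same order.

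Oas1a encodes an enzyme that makes the second messenger of the RNase L pathway. It was even in Chow, at 8.53, 8.69 and 8.68, and stood at 9.998, 10.347 and 8.300 in FFC. FFC 1 and 2 were thus well above the Chow mean of 8.63 ± 0.093 (SD, n = 3) and FFC 3 was below every Chow sample, and the difference over the groups was 0.91 ± 0.48 (adjusted p = 0.20 in limma; 0.53 after centring). Among the effectors, the FFC 3 difference ranged from -3.12 for Ifit3 to -0.26 for Ifi27. Those with a gap of under 2-fold were Adar, Ifi27, Ifi30, Ifi44l, Ifitm1 and Ifitm3.

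**Figure D3:**
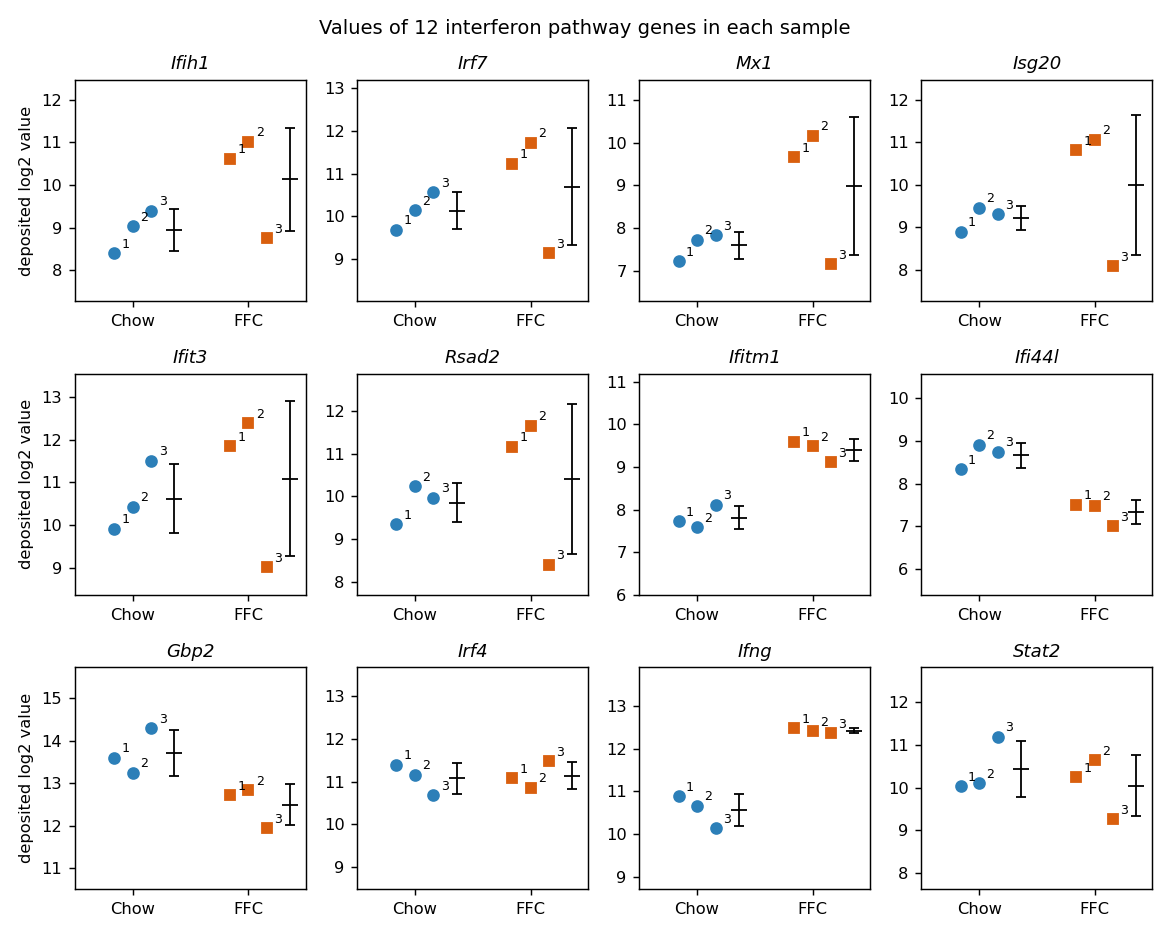
Deposited log2 values of 12 genes of the interferon pathway in each sample, numbered by replicate (blue circles Chow, orange squares FFC); the bars to the right of each group are the mean and SD of 3 samples, and every panel spans the same number of log2 units. FFC 3 lies far below FFC 1 and FFC 2 for Ifih1, Irf7, Mx1, Isg20, Ifit3 and Rsad2, and close to them for Ifitm1, Ifi44l and Ifng.

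Promoter sequence was set beside these values for genes that share the FFC 3 pattern and for the genes that differed between the groups. RefSeq windows on GRCm38.p6, from 250 bases before to 50 bases after a gene's start, were found for 34 of the 38 genes. The core of the interferon-stimulated response element was searched as GAAA, any 2 bases and GAAA, on both strands and with overlapping matches counted, and the gamma-activated site as TTCNNNGAA, which reads the same on both strands. The former was in a window of 14 of 34 interferon genes (41.2%), against 8.03% of the 573 genes of the deposited table with a window and 3.99% of 27025 genes in all. It was in 9 of the 17 members with a window that were at least 2-fold lower in FFC 3 and in 5 of the other 17. The gamma-activated site was in 12 of 34 (35.3%), against 11.3% and 9.55%, and in 6 of 17 in both subsets. A match of letters describes the sequence only and shows no binding.

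The 200 bases before the start are printed 5′ to 3′ for 4 effectors that were low in FFC 3 (Isg15, Ifit1, Ifit3 and Rsad2), for Gbp2 and Ifi44l, which fell in FFC, for Ifitm1, which rose, and for Irf1 and Socs1, which passed as lower after centring. Capitals mark matches to either motif, and where matches overlap they run together. The windows are chr4:156200819-156201018 (minus strand) for Isg15, chr19:34640689-34640888 (plus) for Ifit1, chr19:34583329-34583528 (plus) for Ifit3, chr12:26456453-26456652 (minus) for Rsad2, chr3:142620463-142620662 (plus) for Gbp2, chr16:10785537-10785736 (minus) for Socs1, chr11:53769814-53770013 (plus) for Irf1, chr3:151762892-151763091 (minus) for Ifi44l and chr7:140967876-140968075 (plus) for Ifitm1.
Isg15: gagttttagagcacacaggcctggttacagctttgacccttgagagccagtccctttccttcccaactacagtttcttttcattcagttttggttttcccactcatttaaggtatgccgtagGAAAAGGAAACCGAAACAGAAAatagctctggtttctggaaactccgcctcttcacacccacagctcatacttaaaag
Ifit1: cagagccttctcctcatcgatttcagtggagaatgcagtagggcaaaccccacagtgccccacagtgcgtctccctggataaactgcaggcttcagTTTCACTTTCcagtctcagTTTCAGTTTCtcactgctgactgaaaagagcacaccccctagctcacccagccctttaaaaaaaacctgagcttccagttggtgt
Ifit3: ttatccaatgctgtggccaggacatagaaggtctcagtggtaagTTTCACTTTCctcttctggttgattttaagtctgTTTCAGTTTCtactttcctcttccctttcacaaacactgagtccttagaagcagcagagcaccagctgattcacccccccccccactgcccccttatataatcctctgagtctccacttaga
Rsad2: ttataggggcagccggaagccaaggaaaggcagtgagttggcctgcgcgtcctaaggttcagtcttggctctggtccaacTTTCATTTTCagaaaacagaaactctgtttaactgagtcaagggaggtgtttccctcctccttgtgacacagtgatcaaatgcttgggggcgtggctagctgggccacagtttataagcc
Gbp2: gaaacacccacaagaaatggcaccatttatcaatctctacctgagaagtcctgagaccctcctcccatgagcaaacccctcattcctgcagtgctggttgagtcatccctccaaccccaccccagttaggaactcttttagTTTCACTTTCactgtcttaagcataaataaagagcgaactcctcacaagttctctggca
Socs1: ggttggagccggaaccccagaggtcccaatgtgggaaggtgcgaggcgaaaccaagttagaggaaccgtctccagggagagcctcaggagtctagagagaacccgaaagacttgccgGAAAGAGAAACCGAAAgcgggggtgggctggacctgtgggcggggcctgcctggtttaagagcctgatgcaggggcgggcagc
Irf1: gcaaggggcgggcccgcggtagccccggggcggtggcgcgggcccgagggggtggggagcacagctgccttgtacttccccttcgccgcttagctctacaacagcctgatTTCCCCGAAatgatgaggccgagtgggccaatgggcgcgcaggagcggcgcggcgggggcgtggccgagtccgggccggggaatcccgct
Ifi44l: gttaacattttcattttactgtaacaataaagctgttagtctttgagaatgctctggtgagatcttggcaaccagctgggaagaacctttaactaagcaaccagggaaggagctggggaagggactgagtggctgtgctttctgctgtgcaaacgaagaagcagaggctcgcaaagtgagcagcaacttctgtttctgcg
Ifitm1: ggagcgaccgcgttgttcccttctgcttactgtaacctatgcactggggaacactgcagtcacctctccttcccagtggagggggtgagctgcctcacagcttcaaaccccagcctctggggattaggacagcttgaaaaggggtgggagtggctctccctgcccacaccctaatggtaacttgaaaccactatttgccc

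Isg15 held 3 overlapping matches to the response element, and Ifit1 and Ifit3 held 2 each. Rsad2 and Gbp2 held 1 each, and Socs1 held 2 that overlap. The only match in Irf1 was to the gamma-activated site, and Ifi44l and Ifitm1 had none in the printed bases. Genes with the response element therefore stood on both sides: Ifit3 was above Chow in FFC 1 and 2, while Gbp2 was below Chow in all 3 FFC samples. The 4 printed effectors low in FFC 3 all held the element, but only 9 of the 17 such members with a window did. Isg20 and Irf7, 7.19-fold and 5.10-fold lower in FFC 3, had no match to it in any window. Isg15, which encodes a ubiquitin-like protein that is attached to other proteins and was picked here after its values were seen, had 11.49, 11.92 and 12.20 in Chow and 12.56, 12.95 and 10.81 in FFC. It was thus 3.84-fold lower in FFC 3 than in FFC 1 and 2, and lower there than in any Chow sample.

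All 3 sensors followed the effectors. Ifih1 encodes MDA5 and Ddx58 encodes RIG-I, both cytosolic sensors of viral RNA, and Zbp1 encodes a sensor of Z-form nucleic acid that can start cell death. Ifih1 stood at 8.401, 9.03 and 9.39 in Chow and 10.62, 11.02 and 8.76 in FFC. FFC 1 and 2 exceeded every Chow sample and FFC 3 lay within the Chow range, 4.18-fold below the other FFC samples. Ddx58 had 8.88, 9.16 and 10.09 in Chow and 10.57, 10.96 and 8.84 in FFC, and Zbp1 had 10.73, 11.12 and 11.54 in Chow and 11.88, 12.08 and 9.83 in FFC. For both, FFC 3 was below every Chow sample. The group differences were 1.19 ± 0.56 for Ifih1, 0.74 ± 0.55 for Ddx58 and 0.13 ± 0.56 for Zbp1 (0.80, 0.36 and -0.26 after centring). None of the 3 passed in limma (adjusted p of 0.16 and above; 0 at an unadjusted p under 0.05).

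The 6 interferon regulatory factors differed from one another. Irf7, the transcription factor that amplifies type I interferon production and is itself induced by it, had 9.68, 10.15 and 10.57 in Chow and 11.23, 11.73 and 9.13 in FFC. It was the only one of the 6 with a gap of at least 2-fold, 5.10-fold, and over the 6 samples it followed the mean of the antiviral effectors closely (Pearson r = 0.998, a description over 6 samples that share the FFC 3 contrast). Irf9, the DNA-binding part of the type I complex, had 9.80, 9.69 and 10.65 in Chow and 10.18, 10.48 and 9.47 in FFC. Irf2, a repressor that competes with Irf1, had 9.16, 9.08 and 9.87 in Chow and 9.43, 9.87 and 8.86 in FFC. In both the groups overlapped, with FFC 3 lowest of all samples by a small margin.

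Irf1, an activator induced by interferon gamma, had 11.66, 11.43 and 12.35 in Chow and 11.44, 11.67 and 10.94 in FFC. The groups overlapped, and the difference of -0.46 ± 0.31 did not pass (adjusted p = 0.31 in limma), while after centring it was -0.85 (adjusted p = 0.021). Irf3, which is present before stimulation and is activated by phosphorylation, was flat, at 8.76, 8.62 and 9.06 in Chow and 8.81, 8.95 and 9.05 in FFC. Irf4, which is induced by the T cell receptor and drives effector differentiation, had 11.39, 11.16 and 10.68 in Chow and 11.07, 10.86 and 11.48 in FFC. Irf3 and Irf4 were the 2 members of the 38 that were higher in FFC 3 than in the mean of FFC 1 and 2, by 0.17 and 0.51. Over the groups, none of the 6 factors passed in limma on the deposited scale, and 0 had an unadjusted p under 0.05. The differences of Irf2, Irf3 and Irf4 were positive as deposited (0.016, 0.13 and 0.060) and negative after centring (-0.37, -0.26 and -0.33).

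Receptor genes were measured for both interferon types. Ifnar1 had 9.35, 9.12 and 10.02 in Chow and 9.85, 10.03 and 9.03 in FFC. Ifnar2 had 8.26, 8.39 and 8.86 in Chow and 9.20, 9.37 and 8.27 in FFC, a 2.01-fold lower value in FFC 3 than in the other FFC samples. Ifngr1, the ligand-binding chain for interferon gamma, had 10.58, 10.17 and 12.40 in Chow and 11.41, 11.72 and 10.91 in FFC. Its highest value was in Chow 3, with 4896 counts against 1972 and 1629 in Chow 1 and 2. The groups overlapped for all 3 receptor chains, and none passed in limma (differences of 0.14, 0.44 and 0.30, adjusted p of 0.36 and above; 0 at an unadjusted p under 0.05). Without Chow 3, Ifngr1 passed as higher in FFC (0.97, adjusted p = 0.041 in limma), in a fit where 284 of the 748 tested genes passed as higher. After centring, Ifnar1 and Ifngr1 turned to -0.25 and -0.089.

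Among the guanylate-binding proteins, Gbp2 fell, as given before, and the other two did not pass. Gbp2b, the gene next to Gbp2 on chromosome 3, had 6.71, 6.80 and 7.43 in Chow and 7.91, 8.09 and 7.37 in FFC, so that FFC 3 overlapped with Chow 3 (0.81 ± 0.29, adjusted p = 0.078 in limma; 0.43 after centring). It was present at only 135 to 215 counts. Gbp5, which promotes inflammasome assembly, had 10.73, 10.71 and 11.52 in Chow and 11.04, 11.56 and 9.65 in FFC, 3.13-fold lower in FFC 3 than in FFC 1 and 2, with a group difference of -0.24 ± 0.47 (adjusted p = 0.76 in limma). Without the probes' sequences, cross-hybridisation between these related genes was not tested.

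The 3 immunoproteasome subunits, which shape peptides for MHC class I, differed in how far FFC 3 departed. Psmb8 was level, between 12.48 and 13.04 in all 6 samples, Psmb10 was 1.89-fold and Psmb9 2.38-fold lower in FFC 3. Psmb9 was the same in all Chow samples to within 0.02 (SD, n = 3; mean 9.79), and stood at 10.36, 10.39 and 9.12 in FFC. On the deposited scale the group differences were -0.13, 0.23 and 0.17 for Psmb8, Psmb10 and Psmb9, none past the threshold in limma (0 at an unadjusted p under 0.05). After centring they were -0.52, -0.15 and -0.22, and Psmb8 passed (adjusted p = 0.043). Socs1, the feedback inhibitor of Jak kinases, had 11.998, 12.02 and 12.29 in Chow and 11.78, 11.88 and 11.50 in FFC. Every FFC sample was below every Chow sample, but the difference was small (-0.38 ± 0.22, adjusted p = 0.23 in limma; -0.77 after centring, adjusted p = 0.016). Trim25, the ubiquitin ligase that activates RIG-I, was 2.46-fold lower in FFC 3 than in the other FFC samples.

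Of the interferon pathway beyond the 38 genes, 25 of 37 listed genes were measured, and 4 rose and 0 fell in FFC in limma (6 at an unadjusted p under 0.05), a share near the 17.4% of all tested genes that rose. The 3 interferon genes measured were among them. Ifng, the gene of interferon gamma, had 10.89, 10.67 and 10.14 in Chow and 12.48, 12.41 and 12.37 in FFC, so that FFC 3 was level with FFC 1 and 2 (1.86 ± 0.25; 1.47 after centring; adjusted p = 0.013). Ifna1, of the type I family, had 8.18, 8.07 and 8.57 in Chow and 9.65, 10.004 and 9.55 in FFC (1.46 ± 0.24; 1.08 after centring; adjusted p = 0.017). All FFC samples of both genes, FFC 3 included, were above all Chow samples. FFC 3 was 1.06-fold and 1.21-fold below the mean of the other FFC samples for these 2 genes. For Ifnb1, the other interferon gene measured, it was 1.60-fold below that mean. Over the 18 antiviral effectors the median FFC 3 difference was -1.81 (log2), and 12 were at least 2-fold lower. Ifi27, Ifi30 and Ifitm3 among them were only 1.20-fold, 1.23-fold and 1.24-fold lower. Ifnb1 (1.05, adjusted p = 0.048) and the DNA sensor gene Tlr9 (1.05, adjusted p = 0.048) had low counts, 76 to 147 and 136 to 282, and passed neither under quantile normalization (adjusted p = 0.28 and 0.20) nor under cyclic loess. The 142 tested genes outside the 38 with a mean count of 100 to 200 had a median difference of 0.80, above the 0.43 of all tested genes; the part of this shift in the differences of Ifnb1 and Tlr9 was not tested. The calls of Ifna1, Ifnb1 and Tlr9 were lost without Chow 1, Chow 2, FFC 1 or FFC 2, and that of Ifng without Chow 2, FFC 1 or FFC 2, in fits where 1 to 7 of all 748 genes rose. Over the 6 fits without 1 sample the differences were 1.33 to 1.61 for Ifna1, 0.88 to 1.30 for Ifnb1, 0.86 to 1.31 for Tlr9 and 1.65 to 2.02 for Ifng.

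The signal transducers Jak1, Jak2, Tyk2 and Stat2 did not pass in limma (1, Tyk2, at an unadjusted p under 0.05). Stat2, used by the type I pathway, had 10.03, 10.10 and 11.19 in Chow and 10.24, 10.65 and 9.25 in FFC, 2.28-fold lower in FFC 3 than in FFC 1 and 2. FFC 3 was the lowest of the 6 samples and the groups overlapped. Both measured chemokines that interferon gamma induces were below every Chow sample in FFC 3. Cxcl9 had 10.21, 10.83 and 10.79 in Chow and 9.32, 10.21 and 9.52 in FFC, a difference of -0.93 ± 0.30 (adjusted p = 0.059 in limma; -1.31 after centring, adjusted p = 0.017), with every FFC sample below every Chow sample. Cxcl10 had 10.59, 11.20 and 10.84 in Chow and 11.27, 11.66 and 9.72 in FFC, with FFC 3 below all Chow samples, 3.35-fold under the other FFC samples.

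**Figure D4:**
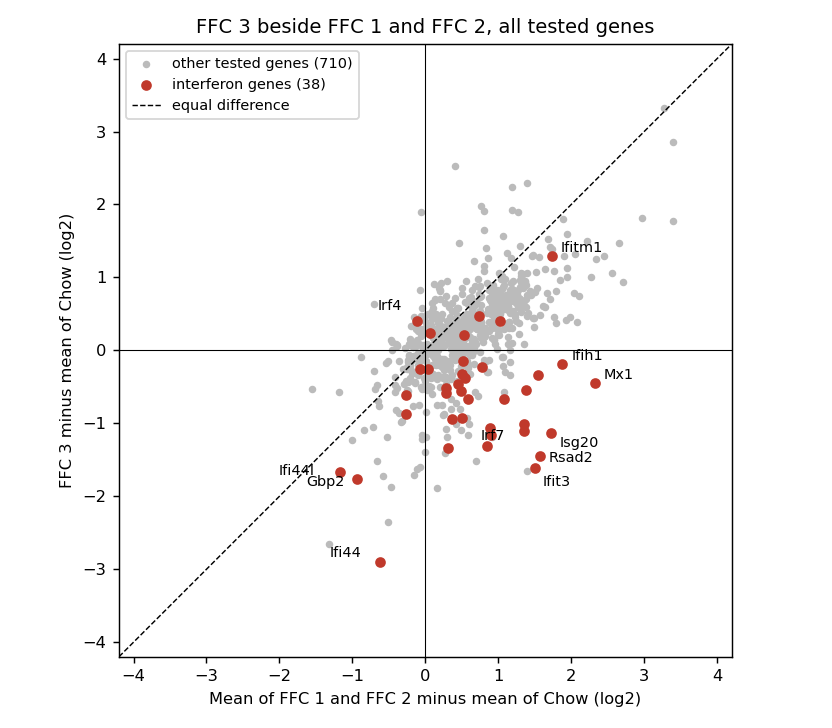
Each tested gene by its difference from the Chow mean in FFC 1 and 2 (horizontal, log2) and in FFC 3 (vertical, log2), with the 38 interferon genes in red and the other 710 in grey; on the dashed line both differences are equal. Mx1, Isg20, Rsad2, Ifit3 and Ifih1 lie to the right of 0 and below it, Ifitm1 lies near the line at upper right, and Ifi44, Ifi44l and Gbp2 are below 0 on both axes.

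With FFC 3 left out, FFC 1 and 2 against Chow gave 15 interferon genes as higher, where 30.6% of all tested genes passed, and 1 as lower, where 0.668% passed. The 15 were Ddx58, Gbp2b, Ifi27, Ifih1, Ifit1, Ifit3, Ifitm1, Irf7, Isg15, Isg20, Mx1, Oas1a, Oas2, Oasl1 and Rsad2, and the gene that fell was Ifi44l. Mx1 was then 5.01-fold higher (adjusted p = 0.0050 in limma), Ifih1 3.67-fold (adjusted p = 0.014), Isg20 3.29-fold (adjusted p = 0.0069) and Irf7 2.54-fold (adjusted p = 0.022). As log2 differences these are 2.32, 1.88, 1.72 and 1.35, and after centring they were 1.81, 1.36, 1.20 and 0.83 in the same order. Centring thus took more off each difference here than with all samples. The median over the 38 was 0.53, against 0.55 over all tested genes, and the share called higher, 39.5%, stood near the 30.6% of all tested genes. With centred values, 10 members passed as higher (19.5% of all tested genes) and 8 as lower (13.5%). Those higher were Ddx58, Gbp2b, Ifih1, Ifit1, Ifitm1, Irf7, Isg20, Mx1, Oas1a and Rsad2, so Ifi27, Ifit3, Isg15, Oas2 and Oasl1 lost their call. Those lower were Gbp2, Ifi30, Ifi44, Ifi44l, Irf1, Irf3, Psmb8 and Socs1. Leaving FFC 3 out was chosen with the values known and keeps 2 samples on the FFC side, so the fit shows how much rests on that sample.

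Genes outside the 38 were also compared with the effectors. Among the 710 tested genes outside the 38, those whose values over the 6 samples were most like the mean of the 18 antiviral effectors were Vcam1, Il5, Herc6, Trim21 and Cxcr5, with Pearson r of 0.99, 0.99, 0.98, 0.98 and 0.97 and Spearman rho of 1, 1, 1, 0.94 and 1. With 6 samples and 1 low sample shared by all, these values are a description. Vcam1 encodes an adhesion molecule and Cxcr5 a chemokine receptor of follicular helper T cells and B cells. Herc6, the mouse ligase that attaches Isg15, and Trim21, a cytosolic antibody receptor, are interferon-induced. Herc6 had 8.65, 9.19 and 9.76 in Chow and 9.86, 10.4 and 8.01 in FFC. Il5, a cytokine of type 2 helper cells, had 8.79, 9.67 and 9.80 in Chow and 10.5, 11.2 and 7.77 in FFC, an 8.28-fold gap between FFC 3 and the other FFC samples. Of the 30 tested genes lowest in FFC 3 relative to FFC 1 and 2, 15 were interferon genes.

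Markers of other cells were set beside the pattern. The summed linear level of 8 measured macrophage and monocyte markers, of 14 listed, was between 1123 and 2280 in Chow, 4532 and 6009 in FFC 1 and 2 and 2576 in FFC 3. Of the 8, 5 were at least 2-fold lower in FFC 3, against 11.8% of all tested genes, and the highest FFC 3 difference among the 8 was 0.17. The macrophage and monocyte sum was higher in FFC 3 than in any Chow sample. The 5 measured T cell markers summed to between 9218 and 11024 in Chow, 13858 and 15487 in FFC 1 and 2 and 13378 in FFC 3. For the 5 measured NK cell markers of 6, the range was 435 to 643 in Chow and 1072 to 1979 in FFC, with FFC 3 lowest of the latter, and for the 6 neutrophil markers of 7 it was 415 to 910 and 806 to 1300. The 6 measured B cell markers of 7 summed to between 1326 and 2915 in Chow and between 1353 and 1664 in FFC, and the 2 dendritic cell markers (Itgax and Xcr1, of 8 listed) to between 79.9 and 118 in Chow and between 159 and 192 in FFC. Of 5 listed markers of plasmacytoid dendritic cells, major makers of type I interferon, Tcf4 and Bst2 were measured, and Bst2 is itself one of the 38. Their sum was between 1130 and 1583 in Chow, 1530 and 1901 in FFC 1 and 2 and 775 in FFC 3. None of the other sums was lower in FFC 3 than in every Chow sample. The FFC 3 difference was -1.42 (log2) for Bst2 and -0.47 for Tcf4, and that of the typical tested gene (median) was -0.34. The low sum in FFC 3 thus came mainly from Bst2. As Bst2 is a member, the sum is no separate measure of plasmacytoid dendritic cells. No measured marker of these lists was at 0 in any sample. The part of other cells in the FFC 3 pattern was not tested.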

How the data were processed

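The authors deposited log2 values of 750 genes in 6 samples, measured by nCounter on RNA that, per the labels' protocols, came from a Direct-zol column kit. The sources used here do not give their normalization. In each sample 2 to the power of every deposited value was a whole number, to within 0.02, times a scale factor (0.707 to 1.26), which gave the counts quoted. Groups come from the sample titles.

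Genes with a linear mean of at least 20 entered limma 3.58.1 in R 4.3.3 (lmFit and eBayes, no covariate, no pseudocount), and p-values were two-sided and Benjamini-Hochberg adjusted over all 748 tested genes, with a threshold of 0.05. The fit was tested on simulated data with independent noise for each gene and sample. That test does not cover a shift shared by many genes of 1 sample. One gene of the pathway list is not reported here. The members, gene lists, roles and the contrast of FFC 3 with FFC 1 and 2 were chosen with earlier results of these data known. Values in every sample are given for called members, receptors, regulatory factors, sensors, the 6 largest increases and decreases, and the members most apart in FFC 3; Isg15, Psmb8, Psmb9, Psmb10, Ifi27, Ifitm3 and Trim25 are named outside that rule, after their values were seen. Symbols of all 38 genes matched RefSeq (GRCm38.p6). With 3 samples a group precision was limited. The deviations of same-numbered samples from their group means had correlations of 0.02, -0.22 and -0.04. Differently numbered samples were not compared in this way, so these values cannot decide whether the numbers pair the samples. Alternatives were a pseudocount of 10, other filters, median centring, quantile normalization, cyclic loess, the replicate block, trend and robust eBayes, and each sample left out.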

Additional observations from a re-analysis of the deposited data

How the results depend on the processing

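With a pseudocount of 10, no filter, a mean of at least 50, or trend and robust eBayes, Ifitm1, Ifi44l and Gbp2 were the 3 interferon genes that passed in limma, as on the deposited scale. Cyclic loess also called these 3, while quantile normalization called Ifitm1, Ifi44l and Socs1, and median centring 1 higher and 5 lower. Over all tested genes the 130 higher and 7 lower calls became 108 and 36 after centring, 30 and 23 under quantile normalization and 35 and 27 under cyclic loess. The replicate block left 0 interferon genes higher and 0 lower (4 at an unadjusted p under 0.05) and 1 and 0 among all genes (199 at an unadjusted p under 0.05). Whether the numbers pair the samples is not known. Leaving out 1 sample gave 0 to 15 interferon genes higher and 0 to 1 lower, and 1 to 284 and 0 to 6 among all genes. The count of interferon genes at least 2-fold lower in FFC 3 was 16, 16 and 18 after centring, quantile normalization and cyclic loess, against 20, and the median FFC 3 difference was -0.64, -0.66 and -0.81; over all tested genes the count was 43, 49 and 56, against 88. The sign of the difference turned for 13 of the 38 genes under centring, 11 under quantile normalization and 9 under cyclic loess, none of them called as deposited. With Cxcl10, those that the rule for named genes picked were under centring (-0.25 for Ifnar1, -0.089 for Ifngr1, -0.37 for Irf2, -0.26 for Irf3, -0.33 for Irf4, -0.26 for Zbp1 and -0.38 for Cxcl10), quantile normalization (-0.11 for Ifnar1, -0.32 for Irf2, -0.22 for Irf3, -0.15 for Irf4, -0.087 for Zbp1 and -0.17 for Cxcl10) and cyclic loess (-0.052 for Ifnar1, -0.19 for Irf2, -0.15 for Irf3, -0.089 for Irf4, -0.020 for Zbp1 and -0.15 for Cxcl10). Leaving out 1 sample turned the sign for 18 of the 38 genes in at least 1 of the 6 fits. Of the genes that the rule picked, Cxcl10 and Stat2 included, 11 turned, with ranges of -0.23 to 0.28 for Irf2, -0.28 to 0.84 for Zbp1, -0.38 to 0.59 for Cxcl10, -0.056 to 0.44 for Ifnar1, -0.14 to 0.97 for Ifngr1, -0.14 to 0.22 for Irf4, -0.22 to 0.30 for Irf9, -0.64 to 0.31 for Gbp5, -0.19 to 1.51 for Ifit3, -0.065 to 1.57 for Rsad2 and -0.69 to 0.0051 for Stat2. The cause of these shifts was not tested. Counts of the 38 genes ran from 60 (Oas2 in FFC 3) to 18192 (Gbp2 in Chow 3), and control probes that would give the background level were not analysed here.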
